A study of Mus musculus with 21 samples.

Results

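The mRNA of mouse chromosome 13 was followed along the length of the chromosome through its expressed protein-coding genes in 7 glioma stem-like cell lines. A gene was a member if it lay on chromosome 13, was annotated as protein-coding and had a mean of at least 2 FPKM over the 21 libraries, where FPKM is the number of fragments divided by gene length and by library size. The rule gave 350 members out of 837 protein-coding genes and 2503 genes of any kind on the chromosome. The whole table holds 54532 genes, of which 9627 protein-coding genes on any chromosome pass the same minimum. The members start between 3538063 and 119765187 in GRCm38 coordinates. For each member, the deviation of a line is its mean log2(FPKM + 0.5) minus the mean of the 7 lines, so the 7 deviations of a member add up to 0. The chromosome was selected on these measured deviations, which are shifted in single lines, and the members were chosen by position, biotype and mean FPKM. The deviations are therefore given as descriptions, with no test. Only mRNA was measured, and DNA copy number was not.

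The study established lines from brain tumours of genetically engineered mice and measured their mRNA to compare IDH1 WT with IDH1 mutant glioma cells. PIC144-1, PIC144-3, PIC496-3 and PIC496-4 are labelled IDH1 mutant, and PC134-0, PC308-1 and PC326-1 are labelled IDH1 WT. All lines were grown without treatment as floating cultures in neural stem cell medium with EGF and bFGF at low oxygen, and each has 3 libraries that the labels call biological replicates. The sources used here do not give other alleles of the mice, the animal behind each line, or whether lines that share a number come from 1 animal. Each library held 15011668 to 21966351 fragments, of which 462289 to 726233 came from the members. The summed level of 9 markers of glioma stem-like cells was 1174 to 2059 FPKM by line. The defining markers of endothelial cells, neurons and mature oligodendrocytes summed to at most 0.569 FPKM in any line, and 5 markers of microglia and macrophages summed to 0.644 to 5.06 FPKM. Nearly all of that sum was Cd68 (5.05 FPKM in PC134-0), while Ptprc, Aif1, Cx3cr1 and Csf1r were at or near 0, at most 0.0542 FPKM in any line. In such bulk samples, fewer cells of a type and less RNA per cell cannot be told apart.

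Tumour cells often gain or lose whole chromosomes or arms. The mRNA of most genes on such a chromosome then tends to shift by a similar small fold, while genes under strong regulation of their own move independently of their neighbours. Mouse chromosome 13 carries a large cluster of replication-dependent histone genes, several clusters of zinc finger genes, the cyclin B1 gene Ccnb1, the PI3-kinase regulatory subunit gene Pik3r1, and the BDNF receptor gene Ntrk2.

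To show what lies in front of members at the extremes, 4 promoter sequences were read from RefSeq (GRCm38.p6). Ccdc127, a coiled-coil domain protein, and Smim15, a small membrane protein, were among the members that followed the chromosome most evenly. Barx1, a homeobox transcription factor, and Cxcl14, a chemokine, varied most between lines. These are the extremes among members whose RefSeq start lies within 100 bases of the annotated gene start and whose symbol is not a predicted or clone name, ranked by the standard deviation (SD) over the 7 lines after each line's chromosome median was removed. The sequences are 150 bases that end 50 bases before the start, written 5′ to 3′ on the gene's strand, with CpG dinucleotides in capitals. They lie at chr13:74350117-74350266, plus strand, chr13:108044274-108044423, plus strand, chr13:48662836-48662985, plus strand, and chr13:56296602-56296751, minus strand, in that order.
Ccdc127: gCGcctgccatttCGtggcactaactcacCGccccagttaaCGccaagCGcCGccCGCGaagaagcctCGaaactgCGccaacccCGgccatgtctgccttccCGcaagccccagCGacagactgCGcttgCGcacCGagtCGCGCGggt
Smim15: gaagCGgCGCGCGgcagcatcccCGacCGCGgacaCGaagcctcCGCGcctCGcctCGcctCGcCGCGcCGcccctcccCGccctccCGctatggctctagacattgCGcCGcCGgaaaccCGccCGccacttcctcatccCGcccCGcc
Barx1: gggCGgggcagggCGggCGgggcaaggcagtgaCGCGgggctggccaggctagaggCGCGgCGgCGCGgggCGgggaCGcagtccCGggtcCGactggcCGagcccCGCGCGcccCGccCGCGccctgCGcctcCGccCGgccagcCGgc
Cxcl14: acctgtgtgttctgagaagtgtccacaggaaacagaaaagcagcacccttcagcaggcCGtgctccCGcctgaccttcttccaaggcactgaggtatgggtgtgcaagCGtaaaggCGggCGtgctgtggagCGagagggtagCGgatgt

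Ccdc127 and Smim15 hold 19 and 25 CpG in these 150 bases, against 25 in Barx1 and 7 in Cxcl14. Over the 250 bases before the start, the 285 members with a RefSeq promoter had a median of 19 CpG. The median was 17 over 9768 promoters of protein-coding genes past the same FPKM minimum. That set holds every listed promoter of a gene, while each member has only the nearest to its start, so the sets are unlike. When the 285 members were put in 4 groups by how much they varied between lines, the median was 17.5 CpG in the steadiest group, 20 and 21 in the middle groups and 18 in the most variable group. Across these members, which are not independent replicates, Spearman's rho between CpG count and between-line SD was -0.04. CpG density in this window thus had no visible order with the evenness of a member. The letters TATAAA were searched on the gene's strand in the last 40 bases before the start. They were present in 4 members (1.40%) and in 1.09% of the 9768 promoters, with the same limit.

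The mRNA of the chromosome was shifted furthest in the 3 IDH1 WT lines, and not in a single direction. The median deviation of the 350 members was 0.34 in PC134-0 and 0.29 in PC326-1, and -0.31 in PC308-1. The 4 IDH1 mutant lines lay between them, with -0.01 in PIC144-1, -0.07 in PIC144-3, -0.12 in PIC496-4 and -0.15 in PIC496-3. PIC496-3 was below 0 in all 3 libraries (-0.150, -0.150 and -0.148) and in all 12 windows described below. The 3 libraries of a line repeated these medians closely: 0.340, 0.373 and 0.338 in PC134-0, 0.291, 0.298 and 0.298 in PC326-1, and -0.293, -0.260 and -0.317 in PC308-1. The SD between libraries of a line was 0.002 to 0.029. The shifts of the 3 IDH1 WT lines were larger than this spread between libraries. The smaller shifts of PIC144-3, PIC496-3 and PIC496-4 also exceeded the SD of their own libraries, and that of PIC144-1 did not. Among 20 chromosomes, chromosome 13 had the highest median in PC134-0 and PC326-1 and the lowest in PC308-1 and PIC496-3. The median over genes of the other autosomes was -0.026 to 0.017 by line.

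**Figure D1:**
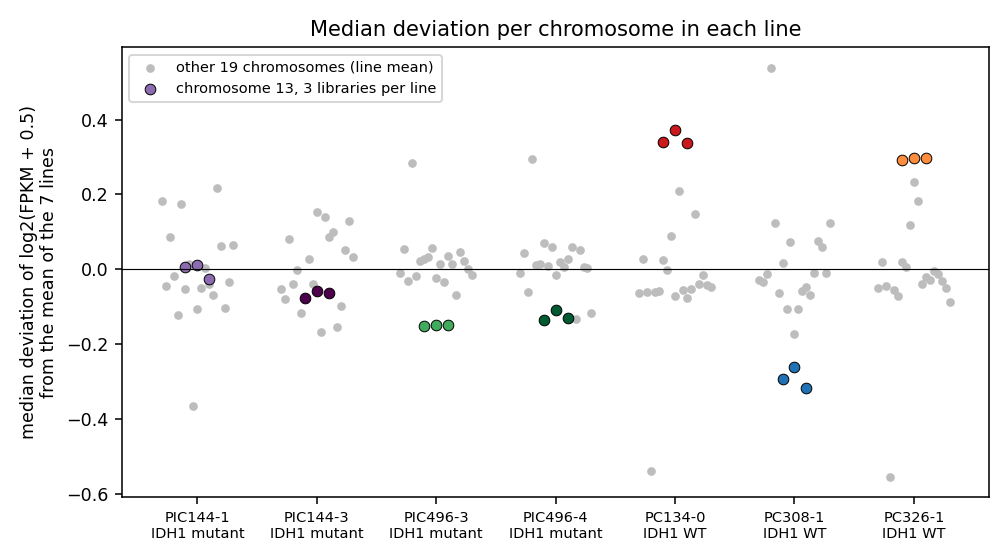
Median deviation of protein-coding genes with a mean of at least 2 FPKM (vertical axis, log2 scale) in each line, with chromosome 13 as 3 coloured points, 1 per library, and the other 19 chromosomes as grey points for the line mean. Chromosome 13 is above every other chromosome in PC134-0 (0.34) and PC326-1 (0.29) and below every other in PC308-1 (-0.31).

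Set directly against each other, without the mean of the 7 lines, PC134-0 exceeded PC308-1 by a median of 0.66 on the log2 scale (1.58-fold) and was higher for 326 of 350 members. PC326-1 exceeded PC308-1 by 0.62 (1.53-fold). PC134-0 and PC326-1 differed from each other by a median of only 0.06 (1.04-fold). PC134-0 was 1.27-fold above PIC144-1, 1.35-fold above PIC144-3, 1.40-fold above PIC496-3 and 1.39-fold above PIC496-4. The members held 3.98% ± 0.021 (SD, 3 libraries) of the summed FPKM of protein-coding genes past the minimum in PC134-0 and 3.70% ± 0.034 in PC326-1. This share was 2.52% ± 0.018 in PC308-1 and 2.72% to 2.96% in the IDH1 mutant lines, so no mutant line reached PC326-1.

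Chromosome 12 was shifted in the same 3 lines with opposite signs, and in both PIC496 lines. Its 324 genes had medians of -0.54 in PC134-0, -0.55 in PC326-1, 0.54 in PC308-1, 0.28 in PIC496-3 and 0.30 in PIC496-4. Whether the chromosomes shifted together was not tested.

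The shift was spread over most members rather than carried by a few. In PC134-0, 329 members (94.0%) lay above the 7-line mean, against 47.8% of all protein-coding genes past the minimum. In PC326-1 these were 310 members (88.6%), against 49.2%, and in PC308-1 only 55 members (15.7%), against 48.1%. In the mutant lines, 172 members lay above it in PIC144-1 (49.7% of all genes did), 134 in PIC144-3 (49.9%), 85 in PIC496-3 (51.9%) and 132 in PIC496-4 (50.9%). The middle 50% of members spanned 0.203 to 0.533 in PC134-0, 0.161 to 0.475 in PC326-1 and -0.467 to -0.116 in PC308-1. In all, 265 members (75.7%) lay above the mean in both PC134-0 and PC326-1 and below it in PC308-1, against a background of 21.3%. For 98 members, all 6 libraries of PC134-0 and PC326-1 lay above the 15 others (background 5.82%), and for 68 members the 3 libraries of PC308-1 lay below the 18 others (background 4.23%). These counts use the contrast that chose the chromosome, so they describe it and support nothing further.

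**Figure D2:**
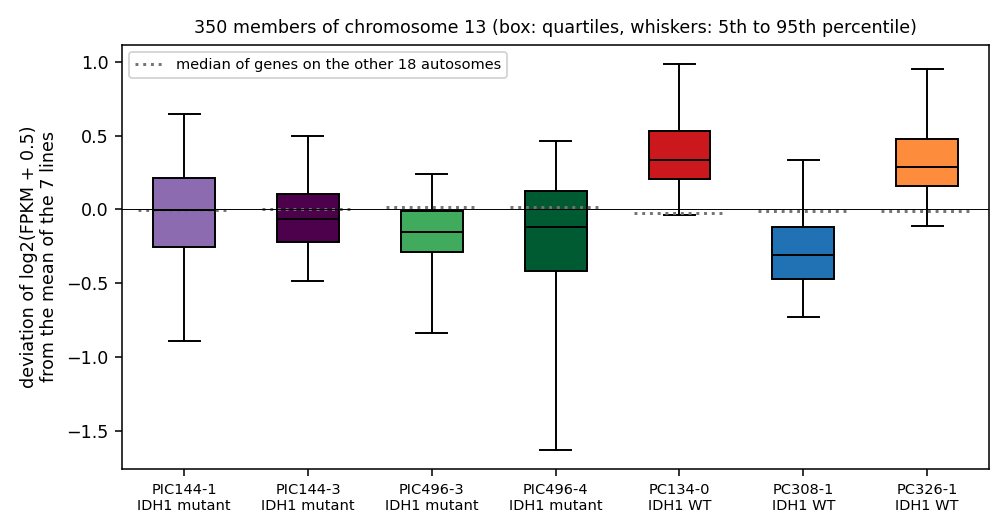
Deviations (vertical axis, log2 scale) of the 350 members in each line, with boxes at the quartiles, whiskers from the 5th to the 95th percentile and a dotted line at the median of genes on the other 18 autosomes. Members are displaced upwards in PC134-0 and PC326-1, where 94.0% and 88.6% lie above 0, and downwards in PC308-1, where 15.7% do.

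Along the chromosome, the shifts of the 3 IDH1 WT lines were present in every 10-Mb window. The members were put into 12 fixed windows of 10 Mb, which held 14 to 57 members each. The window median of PC134-0 lay between 0.27 (0 to 10 Mb) and 0.42 (50 to 60 Mb), and that of PC326-1 between 0.20 (90 to 100 Mb) and 0.40 (70 to 80 Mb). In PC308-1 it lay between -0.37 (70 to 80 Mb) and -0.20 (20 to 30 Mb). All 12 windows were thus above 0 in PC134-0 and PC326-1 and below 0 in PC308-1. The range over windows was 0.146 in PC134-0, 0.170 in PC308-1 and 0.197 in PC326-1. On the other autosomes the median range in these lines was 0.211, 0.252 and 0.244, each wider than on chromosome 13. Windows of 5 Mb gave an exception from 25 to 30 Mb, where only 3 members lie and the medians were 0.04 in PC134-0, -0.15 in PC326-1 and 0.21 in PC308-1.

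Direct differences between lines had the same sign in each 10-Mb window for the pairs that follow, except PC134-0 against PC326-1. PC134-0 exceeded PC308-1 in 12 of 12 windows, by 0.49 (0 to 10 Mb) to 0.83 (70 to 80 Mb). It exceeded PIC144-1 by 0.15 to 0.59, PIC144-3 by 0.28 to 0.50, PIC496-3 by 0.35 to 0.62 and PIC496-4 by 0.31 to 0.70, again in 12 of 12 windows each. PC308-1 lay below each of the 4 mutant lines in 12 of 12 windows, by 0.05 to 0.56. PC326-1 exceeded PIC144-1 by 0.04 (80 to 90 Mb) to 0.52 (50 to 60 Mb). PC134-0 and PC326-1 stayed within -0.05 and 0.15 of each other in every window.

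**Figure D3:**
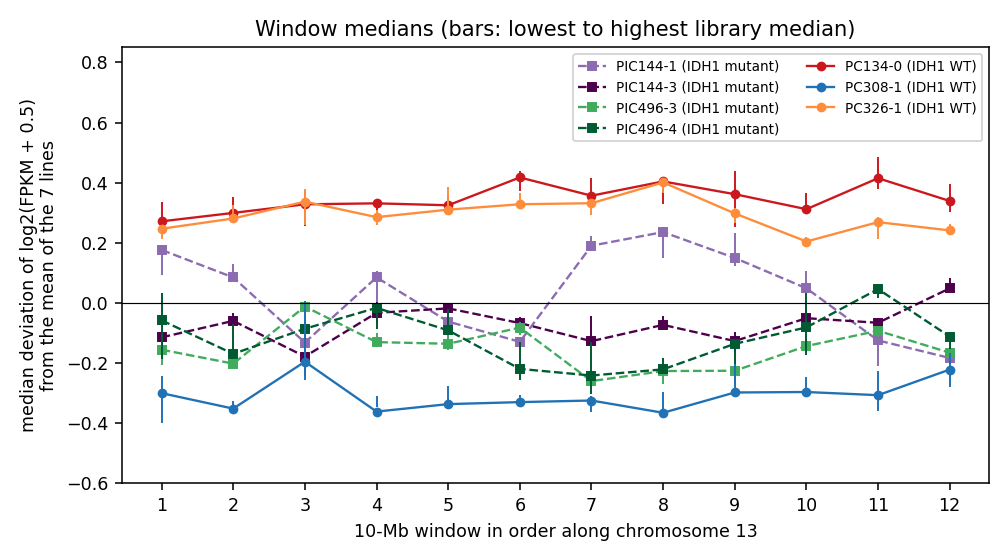
Median deviation (log2 scale) of the members in 12 windows of 10 Mb along chromosome 13, numbered from the start of the chromosome, with bars from the lowest to the highest of the 3 library medians. PC134-0 and PC326-1 lie between 0.20 and 0.42 in every window, and PC308-1 lies between -0.37 and -0.20.

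The 20 to 30 Mb window, where PC308-1 came nearest to 0, was also the least reproducible in that line, with library medians of -0.257, 0.008 and -0.204. It holds 36 members, of which 16 are replication-dependent histone genes of the Hist1 cluster. Their mRNA is made in S phase and most of it carries no polyA tail, so polyA capture samples it incompletely. The 16 Hist1 members, a class set apart after their values were seen, had medians of 0.42 in PC134-0, 0.34 in PC326-1 and -0.13 in PC308-1. The 20 other members of the window had 0.25, 0.32 and -0.23. Hist1h1c, a linker histone and the most abundant of the window, was measured at 149 ± 17.5 FPKM in PC134-0 (SD, 3 libraries), 132 ± 26.6 in PC326-1 and 84.7 ± 5.35 in PC308-1.

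A running median over 21 neighbouring members gave 330 positions. PC134-0 stayed between 0.20 and 0.50 and PC326-1 between 0.13 and 0.47, above 0 at all 330 positions. PC308-1 stayed between -0.51 and -0.09, below 0 at all of them. The mutant lines crossed 0: PIC144-3 was above 0 at 50 positions, PIC496-4 at 46 and PIC496-3 at 13. PIC144-1 changed level most, from 0.32 at 67.6 Mb to -0.29 at 106.9 Mb, and was above 0 at 141 positions.

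**Figure D4:**
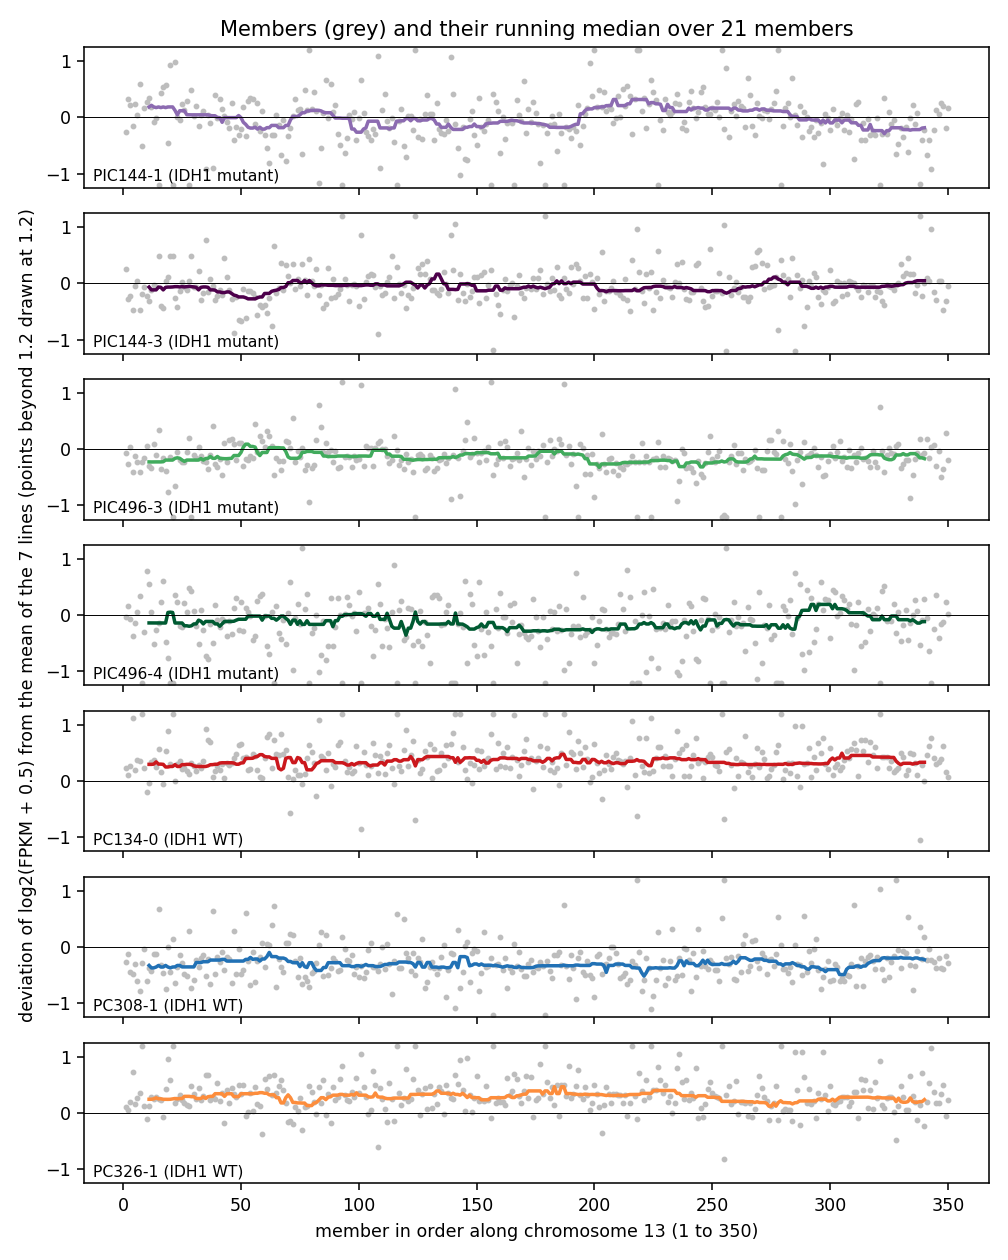
Deviation (vertical axes, log2 scale) of each member as a grey point and the running median over 21 neighbouring members as a curve, against the order of the 350 members along chromosome 13, 1 panel per line. The curves of PC134-0 and PC326-1 stay above 0 and that of PC308-1 below 0 throughout, while PIC144-1 runs from 0.32 to -0.29.

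In each line, a run of neighbouring members was then sought that splits the chromosome best. The run kept left the smallest summed distance of members from their own median, that of the run or of the others. Runs held at least 30 members, with ends in steps of 5 members. In PIC144-1 the run kept reached from Zfp367 (64.133 Mb) to Gm6169 (97.098 Mb) and held 90 members. Their median deviation was 0.18, against -0.09 for the other 260 members, a difference of 0.27. The 3 libraries gave 0.295, 0.258 and 0.277. The search was made on the same values, and the size of this step ranked 4 among the same line's 19 autosomes. The run kept in each of the other 6 lines gave a difference of 0.10 in PC134-0 and PC326-1 and -0.09 in PC308-1. It gave -0.10 in PIC496-3, -0.15 in PIC496-4 and -0.18 in PIC144-3. These need not be the largest differences, as a shorter stretch can depart further. In the 20 to 30 Mb window (36 members) PIC496-3 had a median of -0.01, against -0.15 for all members.

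Against single lines, PIC144-1 exceeded PIC496-3 by a median of 0.44 within this stretch and 0.05 outside it. It exceeded PIC496-4 by 0.36 within and lay at -0.01 outside, and it exceeded PIC144-3 by 0.26 within and lay at -0.01 outside. Against PC308-1 the medians were 0.53 and 0.22. PIC144-1 lay below PC134-0 (-0.15 within, -0.45 outside) and PC326-1 (-0.07 within, -0.38 outside). Because the stretch was chosen on the values of PIC144-1, a higher level within it was built in, and these medians only describe it. The other members were not level among themselves: in the 0 to 10 Mb window PIC144-1 had a median of 0.18, as high as in the stretch, against -0.11 in PIC144-3 and -0.06 in PIC496-4. Members of the stretch include Ctsl, a lysosomal protease, at 69.1 ± 3.31 FPKM in PIC144-1 against 9.999 to 30.1 FPKM in the 6 other lines. Nsun2, an RNA cytosine methyltransferase, had 61.1 ± 2.87 FPKM in PIC144-1, yet 72.3 ± 4.27 in PIC496-4. Iqgap2, a scaffold protein of the cytoskeleton, had 23.1 ± 2.13 FPKM in PIC144-1 and 2.00 to 14.03 FPKM elsewhere.

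Members of low, middle and high level were shifted alike. In the lowest, middle and highest group by FPKM (117, 116 and 117 members) the medians were 0.33, 0.34 and 0.34 in PC134-0. They were 0.32, 0.27 and 0.29 in PC326-1 and -0.31, -0.26 and -0.33 in PC308-1. Below the minimum, 117 protein-coding genes with a mean of 0.5 to 2 FPKM had medians of 0.31, 0.29 and -0.17 in these lines. The 28 lincRNA and antisense genes at 0.5 FPKM or more had 0.38 in PC134-0, 0.10 in PC326-1 and -0.17 in PC308-1. The 45 pseudogenes showed no such shift, with -0.10, -0.04 and -0.04. Reads of a pseudogene can come from its parent gene on another chromosome, so their levels are uncertain.

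At the minimum itself, Hapln1 (2.03 FPKM) and Carmil1 (2.05) were the members just inside, and Rsl1 (1.98) and Fam169a (1.97) lay just outside. Rsl1 had deviations of 0.34 in PC134-0, 0.39 in PC326-1 and -0.29 in PC308-1, and Fam169a had -0.11, -0.28 and 0.70.

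The most abundant members of the windows included genes that followed the chromosome and genes that did not. Here and below, a line's FPKM is given as mean ± SD over its 3 libraries. Epdr1 (chr13:19591706-19619927, minus strand), an ependymin-related glycoprotein, was measured at 71.97, 71.6 and 70.5 FPKM in the 3 libraries of PC134-0 and at 51.5, 53.7 and 49.2 in PC326-1. PC308-1 had 28.6, 26.8 and 27.9 FPKM. The mutant lines had 40.9 ± 1.82, 46.5 ± 0.362, 41.1 ± 0.538 and 39.5 ± 0.966 FPKM in the order PIC144-1, PIC144-3, PIC496-3 and PIC496-4, so Epdr1 was high in PC134-0, lowest in PC308-1 and level in the mutants. Gdi2, a Rab GTPase regulator at the start of the chromosome, ranged only from 53.9 FPKM in PIC144-1 to 78.1 in PIC144-3. Fam120a, an RNA-binding protein, had 133 ± 7.21 FPKM in PIC144-3 and 131 ± 2.98 in PC134-0, which overlap, and its lowest level in PC308-1 (98.1 ± 5.08 FPKM). Gas1, a membrane protein that modulates hedgehog signalling, was highest in PIC496-4 (112 ± 10.9 FPKM) and lowest in PC308-1 (34.8 ± 3.74 FPKM). Hnrnpa0, an RNA-binding protein, had 163 ± 37.1 FPKM in PC308-1 and 197 to 260.4 FPKM elsewhere, with library spreads too wide to separate the lines. Tubb2b, a neural beta-tubulin, reached 484 ± 30.1 FPKM in PC134-0 and 471 ± 26.9 in PIC496-3, and lay at 216 ± 13.1 in PIC496-4.

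**Figure D5:**
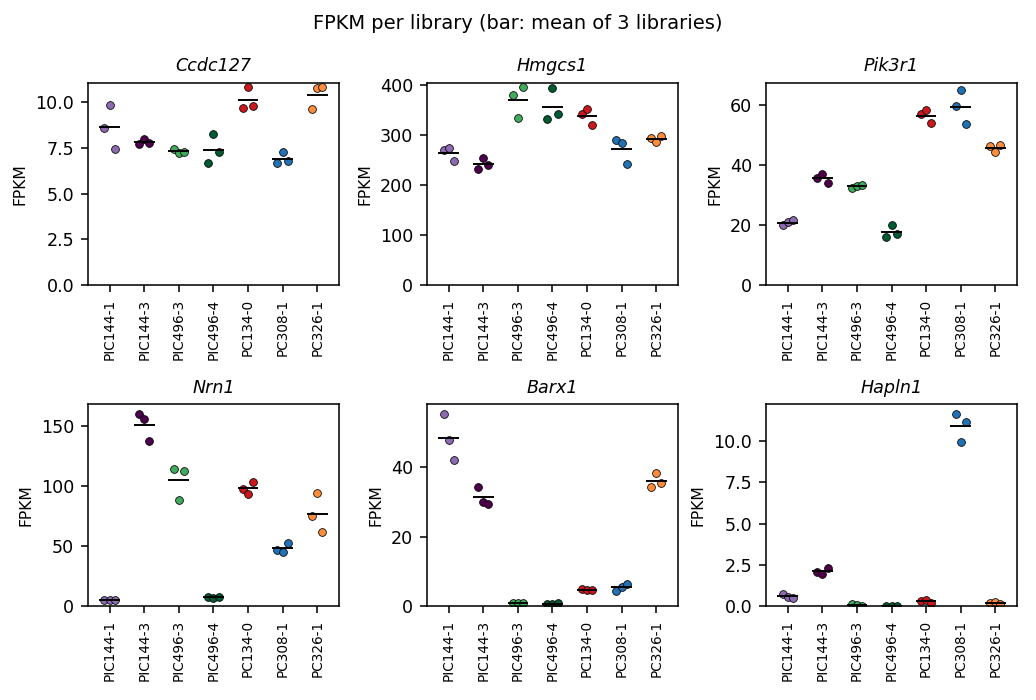
FPKM (vertical axes, linear, from 0) of Ccdc127, Hmgcs1, Pik3r1, Nrn1, Barx1 and Hapln1 in each of the 3 libraries of the 7 lines, with bars at the line means. Ccdc127 follows the chromosome, Pik3r1 is high in all 3 IDH1 WT lines, and Nrn1, Barx1 and Hapln1 differ between lines by far more than the shift.

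Cell cycle, replication and repair genes followed the chromosome closely. Like the lists that come after, this list was chosen with earlier results of these data known, and its counts stand beside those of all members, given above. Of the 25 listed genes of chromosome 13, 19 were members. Of these, 18 lay above the mean in PC134-0 and 19 in PC326-1, and none in PC308-1, with medians of 0.31, 0.25 and -0.42 beside 0.34, 0.29 and -0.31 for all members. Dek, a chromatin protein, was measured at 58.9, 67.2 and 61.5 FPKM in PC134-0, 53.6, 48.97 and 58.1 in PC326-1 and 34.3, 33.1 and 32.9 in PC308-1. The libraries of PC134-0 and PC326-1 all lay above those of PC308-1. Ccnb1, the cyclin that drives entry into mitosis, had 60.2 ± 3.65 FPKM in PC134-0 and 31.4 ± 1.64 in PC308-1, and 37.6 to 51.8 FPKM in the mutant lines. Gmnn, the inhibitor of replication licensing, had 24.7 ± 2.23, 22.9 ± 2.41 and 10.7 ± 2.10 FPKM in PC134-0, PC326-1 and PC308-1. Plk2, a polo-like kinase, had 84.6 ± 5.14, 83.5 ± 1.22 and 46.2 ± 0.984 FPKM.

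Genes of translation and of sterol and energy metabolism were nearly all below the mean in PC308-1, where 15.7% of all members lay above it. Of 15 translation members, 12 lay above the mean in PC134-0, 14 in PC326-1 and 0 in PC308-1, with medians of 0.31, 0.21 and -0.43. In PIC496-4, 14 of these 15 also lay above the mean (median 0.31), although the chromosome's median there was -0.12. Btf3, a factor of nascent chain handling, had 269 ± 10.6 FPKM in PIC496-4 and 179 ± 9.10 in PC308-1. Mrpl36, a mitochondrial ribosomal protein, had 43.4 ± 5.65 and 21.4 ± 1.83 FPKM. Rps23, a cytosolic ribosomal protein, had 278 ± 34.2 FPKM in PC308-1 and 381 to 487 FPKM in the other lines, with reads that its processed copies may share.

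Of 17 sterol and energy members, 16 lay above the mean in PC134-0, 15 in PC326-1 and 1 in PC308-1 (medians 0.28, 0.28 and -0.35). Sdha, the flavoprotein subunit of succinate dehydrogenase, was measured at 93.3, 86.97 and 90.3 FPKM in PC134-0 and 49.3, 49.1 and 53.7 in PC308-1, with no other line below PC308-1. Cox7c, a subunit of cytochrome c oxidase, had 87.5 ± 5.39 FPKM in PC308-1 and 130.3 to 162 FPKM elsewhere. Hmgcs1, a synthase of the sterol pathway, had 371 ± 31.7 and 356 ± 33.5 FPKM in the PIC496 lines and 242 ± 11.4 in PIC144-3.

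Growth factor and morphogen signalling genes were all above the mean in PC134-0 and PC326-1, with 15 of 15 members in each (medians 0.53 and 0.38). Of all members, 94.0% and 88.6% lay above it, so these counts do not set the list apart. In PC308-1, 4 of the 15 were above it (median -0.19). Erbin (chr13:103818787-103920514, minus strand), a binding partner of the ERBB2 receptor, was measured at 56.7, 63.9 and 54.2 FPKM in PC134-0 and at 55.2, 51.6 and 54.2 in PC326-1. In PC308-1 it had 31.1, 32.04 and 28.4 FPKM, within the range of the mutant lines (23.8 to 35.4 FPKM). Pik3r1 (chr13:101680563-101768217, minus strand), the p85 alpha subunit of PI3-kinase, departed from the chromosome in PC308-1, with 59.6, 64.8 and 53.8 FPKM there. It had 56.9, 58.4 and 53.96 FPKM in PC134-0 and 46.4, 44.2 and 46.7 in PC326-1. PIC144-1 had 19.9, 20.97 and 21.5 FPKM and PIC496-4 had 16.04, 20.05 and 16.99, while PIC144-3 and PIC496-3 had 35.5 ± 1.43 and 32.9 ± 0.476. Each of the 3 IDH1 WT lines thus lay above each of the 4 mutant lines in all libraries. The genotype belongs to the line, and all mutant lines lay below all WT lines in 6.43% of genes tested. The genotype test, given below, did not call Pik3r1. F2r, the thrombin receptor, had 88.2 ± 3.03 and 86.1 ± 4.67 FPKM in PC134-0 and PC326-1 and only 22.9 ± 1.98 in PIC496-4. Map3k1, a kinase upstream of JNK, had 51.5 ± 4.70 FPKM in PC308-1, close to 48.5 ± 2.17 in PIC144-3 and above the 5 other lines. Ntrk2, the BDNF receptor, had 21.9 ± 0.115 FPKM in PC134-0 and 0.745 ± 0.0343 in PIC144-1.

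Zinc finger genes were shifted in the direction of the chromosome in the 3 IDH1 WT lines. Of all members, 94.0%, 88.6% and 15.7% lay above the mean in PC134-0, PC326-1 and PC308-1. In this list, all 10 members did in PC134-0 and in PC326-1 and none in PC308-1. Their medians were 0.31, 0.34 and -0.19, beside 0.34, 0.29 and -0.31 for all members. In PIC144-1, 7 of the 10 lay above the mean. Zkscan3, a zinc finger repressor, had 6.96 ± 0.423, 6.99 ± 0.377 and 4.90 ± 0.149 FPKM in PC134-0, PC326-1 and PC308-1. Zfp87 had 6.15 ± 0.920, 6.29 ± 0.754 and 4.18 ± 0.953 FPKM. Zinc finger genes of a cluster resemble each other in sequence, so reads may be split between them.

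Of 5 members of the innate immune list, 5 lay above the mean in PC134-0 and PC326-1 and 1 in PC308-1. Of all members, 94.0%, 88.6% and 15.7% did. Ripk1 and Nfil3 of this list also belong to other lists. Erap1, the peptidase that trims peptides for MHC class I, had 6.33 ± 0.440 and 5.89 ± 0.258 FPKM in PC134-0 and PC326-1 and 2.07 ± 0.216 in PC308-1. The mutant lines lay at 2 levels, with 4.42 ± 0.225 and 4.17 ± 0.522 FPKM in the PIC144 lines and 1.44 ± 0.0645 and 1.34 ± 0.325 in the PIC496 lines. Ripk1, a kinase of the TNF receptor pathway, had 6.86 ± 0.247 FPKM in PIC144-1, 6.29 ± 0.431 in PC134-0 and 3.52 ± 0.334 in PC308-1.

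Several transcription factors, matrix genes and neuronal genes varied far more than the shift of the chromosome, while others followed it. Of 14 neural and patterning factors, 10 lay above the mean in PC134-0, 10 in PC326-1 and 3 in PIC496-4, where the median was -0.75. In PC308-1, 4 of the 14 lay above it (median -0.17). Nr2f1, a nuclear receptor of neural patterning, had 29.2 ± 2.82 and 29.9 ± 2.14 FPKM in PC134-0 and PC326-1 and 11.6 ± 2.01 in PC308-1. Klf6, a Krüppel-like factor, had 29.9 ± 1.01, 27.6 ± 1.75 and 14.9 ± 0.732 FPKM in the same 3 lines and thus followed the chromosome. Sox4, a factor of neural progenitors, was highest in PIC496-3 (112 ± 6.63 FPKM) and lowest in PIC496-4 (38.8 ± 4.93 FPKM). Barx1 (chr13:48662998-48666507, plus strand), whose CpG-dense promoter is printed above, was measured at 55.3, 47.7 and 42.1 FPKM in PIC144-1, 34.3, 30.1 and 29.5 in PIC144-3 and 34.3, 38.3 and 35.4 in PC326-1. It had 5.03, 4.83 and 4.61 FPKM in PC134-0 and 4.56, 5.70 and 6.48 in PC308-1. It was near 1 FPKM in PIC496-3, with 0.896, 0.975 and 1.05, and in PIC496-4, with 0.649, 0.627 and 1.01. Barx1 thus separated PC134-0 from PC326-1, although their chromosome medians were close.

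Of 10 matrix and adhesion members, 9 lay above the mean in PC134-0 and 8 in PC326-1, but 2 in PIC496-3 and 1 in PIC496-4, where the medians were -0.89 and -1.31. In PC308-1, 4 of the 10 lay above it (median -0.13). Nid1, nidogen of basement membranes, had 11.3 ± 0.495 FPKM in PC134-0, 15.5 ± 1.32 in PC326-1 and 0.134 ± 0.0367 in PIC496-4. Edil3, an integrin-binding matrix protein, had 13.6 ± 0.393 and 11.1 ± 1.53 FPKM in PC134-0 and PC326-1 and 0.387 ± 0.0732 and 0.324 ± 0.0769 in the PIC496 lines. Vcan, the proteoglycan versican, was highest in PIC496-4 (25.5 ± 4.95 FPKM) and PIC144-1 (20.1 ± 1.74 FPKM). Hapln1 (chr13:89539796-89611652, plus strand), the link protein that ties proteoglycans to hyaluronan, lies next to Vcan and went against the chromosome in PC308-1. Its libraries there had 11.6, 9.94 and 11.1 FPKM, against 0.321, 0.406 and 0.193 in PC134-0 and 0.216, 0.290 and 0.162 in PC326-1. PIC144-3 had 2.06, 1.95 and 2.34 FPKM and PIC144-1 had 0.766, 0.586 and 0.501. PIC496-3 had 0.138, 0.0800 and 0 FPKM, and PIC496-4 had 0, 0.00929 and 0. The lowest of these values rest on very few fragments.

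Of 10 neuronal cytoskeleton and synapse members, 10 lay above the mean in PC134-0 and 8 in PC326-1, but 2 in PIC144-1 and 1 in PIC496-4 (medians 0.67, 0.74, -0.79 and -0.85). In PC308-1, 7 of the 10 lay above it (median 0.10), against the chromosome's shift there. Nrn1 (chr13:36725361-36735131, minus strand), neuritin of growing neurites, was measured at 159.8, 156 and 137 FPKM in PIC144-3 and 114, 88.1 and 113 in PIC496-3. It had only 5.71, 5.00 and 4.93 FPKM in PIC144-1 and 7.43, 7.29 and 7.79 in PIC496-4. PC134-0 had 97.5, 93.01 and 104 FPKM, PC326-1 had 74.8, 93.98 and 62.1 and PC308-1 had 46.9, 44.9 and 52.9. The PIC144 lines thus held both the highest and the lowest level. Rgs7bp, a membrane anchor of RGS proteins, had 12.8 ± 0.370 FPKM in PC134-0 and 0.0169 ± 0.000566 in PIC144-1. Dbn1, the actin-binding protein drebrin, had 34.7 ± 2.94 FPKM in PC326-1, 17.7 ± 0.595 in PC308-1 and 12.3 ± 1.61 in PIC496-4. Enc1, an actin-binding protein of neurons, had 55.7 ± 3.31 FPKM in PC326-1, 52.5 ± 2.65 in PC308-1 and 17.9 ± 0.486 in PIC496-4.

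Cxcl14 (chr13:56288643-56296551, minus strand), the other highly variable member with a printed promoter, was detected well in 3 lines. It had 6.98, 6.46 and 6.80 FPKM in PIC144-3, 6.05, 5.01 and 5.72 in PC134-0 and 5.41, 6.36 and 5.91 in PC326-1. The highest mean among the 4 remaining lines was 0.0479 FPKM, in PIC496-3. By contrast, Ccdc127 had 9.67, 10.8 and 9.79 FPKM in PC134-0, 9.61, 10.8 and 10.8 in PC326-1 and 6.69, 7.25 and 6.77 in PC308-1. Smim15 had 27.8, 30.1 and 28.8 FPKM in PC134-0, 29.7, 25.7 and 26.8 in PC326-1 and 17.9, 17.6 and 20.2 in PC308-1. These 2 steady members sat at 7.31 to 8.62 and 20.5 to 21.4 FPKM in the mutant lines, between the IDH1 WT lines.

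Members more than 1 log2 unit away from the median of their line numbered 29 in PIC496-4 (8.29%, against 7.45% of genes on all chromosomes), 24 in PIC144-1 (6.86%, against 5.15%) and 17 in PIC496-3 (4.86%, against 2.71%). They numbered 14 in PC134-0 (4.00%, against 2.98%), 11 in PIC144-3 (3.14%, against 2.95%), 10 in PC326-1 (2.86%, against 2.57%) and 9 in PC308-1 (2.57%, against 3.38%). Most of these shares lay near those of all chromosomes. Diras2, a Ras-like GTPase of brain, lay farthest below in PIC496-4, with 0.425 ± 0.0558 FPKM beside 32.5 ± 2.80 in PC134-0. Ube2ql1, a ubiquitin-conjugating enzyme-like protein, had 51.5 ± 6.76 FPKM in PC326-1 and 0.865 ± 0.173 in PIC496-4.

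Only 14 members (4.0%, against 40.2% of all protein-coding genes past the minimum) lay below the mean in both PC134-0 and PC326-1. They were Idi1, Heatr1, Gm11361, Foxc1, Bphl, Prpf4b, Rbm24, Ddx46, Hnrnpk, Uqcrb, Nsun2, Irx1, Hapln1 and Gfm2, and most were looked at only after their values were seen. Hnrnpk, a poly(C)-binding protein of nuclear RNA, was nearly level, with 111, 106 and 109.9 FPKM in PC134-0, 112, 107 and 112 in PC326-1 and 111, 102 and 109.8 in PC308-1. The libraries of the 3 IDH1 WT lines overlapped. Idi1, the isomerase of isoprenoid synthesis, was highest in PIC496-4 (106 ± 15.96 FPKM) and had 53.5 ± 5.79 FPKM in PC134-0. Foxc1, a forkhead factor, was also highest in PIC496-4 (7.61 ± 0.476 FPKM), and Irx1, an Iroquois homeobox factor, in PIC144-1 (6.74 ± 0.858 FPKM).

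Between genotypes, no member differed past the threshold. On line means (4 IDH1 mutant against 3 IDH1 WT lines), all 350 members were among the 13379 genes tested with limma, and 0 had a Benjamini-Hochberg adjusted p under 0.05, against a background of 0.0224% called higher and 0.0897% called lower in the mutant lines. The unadjusted limma p was under 0.05 for 34 members (9.71%, against 12.8% of all genes), 32 of them lower in the mutant lines. With limma voom on recovered fragments, 0 members and 0 of all genes were called, and 31 members (8.86%, against 11.7% of all genes) had an unadjusted p under 0.05. A limma fit over the 21 libraries with the line as a random effect called 14 members lower in the mutant lines (4.0%, against 2.73% of all genes) and 0 higher (against 1.4%). This fit can count the libraries of a line partly as replicates. The median mutant minus WT difference of the members was -0.19 on the log2 scale, and 281 of 350 (80.3%) lay lower in the mutant lines. Over all genes tested that median was 0.01, so no more of those lay lower than higher. For the members, it was -0.41 without PC308-1, -0.08 without PC134-0 and -0.11 without PC326-1. The share lying lower was 90.3%, 61.4% and 66.6% in the same order. Both thus rest on which IDH1 WT lines are in the group, since 2 of those lines lay above the mutant lines in chromosome median and 1 below.

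The overlap of the genotype groups was counted as well. In 13 members (3.71%, background 6.43%) all mutant lines lay below all WT lines, and in 4 members, Uqcrb, Ddx46, Bphl and Gfm2 (1.14%, background 6.82%), all lay above. Kif13a, a kinesin motor, had the smallest p, with 11.5 ± 1.87 FPKM in the mutant lines (SD, n = 4) and 20.0 ± 2.12 in the WT lines (SD, n = 3). Its log2 difference was -0.78 (SE 0.158, limma adjusted p = 0.2015). Nfil3, a basic leucine zipper repressor, had 18.1 ± 2.35 and 29.0 ± 2.53 FPKM (log2 difference -0.67, limma adjusted p = 0.2074). Uqcrb, a subunit of respiratory complex III, went the other way, with a log2 difference of 0.66 (limma adjusted p = 0.2074). Its libraries in PC134-0 were spread widely, at 27.1, 27.5 and 56.5 FPKM. Pik3r1 had a log2 difference of -1.05 (SE 0.265, limma adjusted p = 0.2599). Kif13a, Nfil3 and Pik3r1 were high in PC308-1 along with PC134-0 and PC326-1, against the chromosome's shift there.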

How the data were processed

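Strand-specific libraries of captured polyA RNA were sequenced as read pairs, per the labels' protocols. The submitters' processing notes name HISAT2 and mm39. The sources used here do not give the counter, annotation or use of strand. The authors deposited FPKM per gene. Gene coordinates are those of GRCm38: all 350 members had the same start, end and strand in GENCODE M21.

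Line means of log2(FPKM + 0.5) were computed from the deposited FPKM in Python 3.11.15. The genotype test was limma 3.58.1 (lmFit, eBayes with trend and robust) in R 4.3.3 on 7 line means, over 13379 genes with at least 0.5 FPKM in at least 3 lines, with Benjamini-Hochberg adjustment and a threshold of 0.05. Its p-values measure the spread between lines. It was tested on simulated data. Whole fragments were recovered from the FPKM for depth and for limma voom. Figures were drawn with matplotlib 3.10.9.

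The members and gene lists were chosen with earlier results of these data known. Named were the most abundant member of each window, the 2 highest and 2 lowest deviations of each line, the 4 most abundant members of each list, the 4 smallest genotype p, and the 2 genes on each side of the FPKM minimum, leaving out predicted symbols and a few genes that are not reported here. Other genes were picked with their values in view. The closing section gives alternatives: pseudocounts, minimums, scalings, centres, biotypes, fits, and left-out lines or replicates.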

Additional observations from a re-analysis of the deposited data

Results flagged for a closer look

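In 4 of 73 sets of the 4 IDH1 mutant lines checked over the named members and chromosome medians, 1 line stood apart by Dixon's criterion for 4 values. Chance alone flags about 1 in 20 sets not picked by their values, but many of these members were named for an extreme deviation in a line, Ctsl, Cxcl14 and Tfap2a among them, so that rate does not apply to them. Ctsl had a deviation of 1.85 in PIC144-1, far above the 3 other mutant lines. Cxcl14 had 2.23 in PIC144-3, where the 3 other mutant lines had almost no Cxcl14 mRNA. Klf6 had -0.22 in PIC496-3, a small difference that stood out because the 3 other mutant lines were nearly equal. Tfap2a, an AP-2 transcription factor, had -2.57 in PIC496-4, with a level of 0.137 ± 0.0373 FPKM (SD, 3 libraries) against 5.57 to 7.90 FPKM in the 3 others.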

How the results depend on the processing

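The median deviation of chromosome 13 stayed positive in PC134-0 and PC326-1 and negative in PC308-1 under every alternative run, while its size moved by more than the very small spread between libraries in many of them, and the cause was not tested. With a pseudocount of 0.1 it was -0.16 in PIC496-3, 0.36 in PC134-0 and 0.30 in PC326-1. With a pseudocount of 1 it was -0.14 in PIC496-3 and 0.27 in PC326-1. With a minimum of 0.5 FPKM it was -0.085 in PIC144-3, -0.15 in PIC496-3, -0.16 in PIC496-4 and -0.27 in PC308-1. With a minimum of 10 FPKM it was -0.054 in PIC144-1, -0.048 in PIC144-3 and -0.12 in PIC496-3. After rescaling to TPM it was 0.057 in PIC144-1, -0.10 in PIC144-3, -0.23 in PIC496-3, -0.17 in PIC496-4, 0.42 in PC134-0 and 0.30 in PC326-1. After quantile normalization it was -0.077 in PIC144-3, -0.15 in PIC496-3, -0.095 in PIC496-4, 0.37 in PC134-0, -0.34 in PC308-1 and 0.30 in PC326-1. Centred on the median of the 7 lines it was 0 in PIC144-3, -0.090 in PIC496-3, -0.057 in PIC496-4, -0.26 in PC308-1 and 0.27 in PC326-1. Centring on the other 6 lines only enlarges each deviation by 1 fixed factor, so its sign could not change. So centred, the median deviation was -0.077 in PIC144-3, -0.18 in PIC496-3, -0.14 in PIC496-4, 0.39 in PC134-0, -0.36 in PC308-1 and 0.33 in PC326-1. Over all biotypes it was -0.14 in PIC496-3, -0.10 in PIC496-4, -0.27 in PC308-1 and 0.28 in PC326-1. As a mean over members it was -0.050 in PIC144-1, -0.029 in PIC144-3, -0.17 in PIC496-3, -0.24 in PIC496-4, 0.40 in PC134-0, -0.26 in PC308-1 and 0.34 in PC326-1. Relative to the other autosomes it was -0.17 in PIC496-3, -0.14 in PIC496-4, 0.36 in PC134-0 and 0.30 in PC326-1. Centred on the 4 mutant lines it was 0.073 in PIC144-1, 0.019 in PIC144-3, -0.070 in PIC496-3, -0.043 in PIC496-4, 0.42 in PC134-0, -0.21 in PC308-1 and 0.37 in PC326-1. With PC134-0 out of the centre it was 0.060 in PIC144-1, -0.012 in PIC144-3, -0.089 in PIC496-3, -0.065 in PIC496-4, 0.39 in PC134-0, -0.25 in PC308-1 and 0.35 in PC326-1. With PC326-1 out of the centre it was 0.048 in PIC144-1, -0.020 in PIC144-3, -0.10 in PIC496-3, -0.075 in PIC496-4, 0.40 in PC134-0, -0.25 in PC308-1 and 0.33 in PC326-1. With PC308-1 out of the centre it was -0.060 in PIC144-1, -0.11 in PIC144-3, -0.20 in PIC496-3, -0.17 in PIC496-4, 0.30 in PC134-0, -0.36 in PC308-1 and 0.24 in PC326-1. From recovered fragments per kilobase and library size it was 0.046 in PIC144-1, -0.12 in PIC144-3, -0.19 in PIC496-3, -0.14 in PIC496-4, 0.39 in PC134-0 and 0.32 in PC326-1. Leaving out each replicate number in turn gave -0.076 to -0.056 in PIC144-3, -0.15 to -0.15 in PIC496-3, -0.14 to -0.12 in PIC496-4 and 0.28 to 0.30 in PC326-1. The settings centred on the mutant lines, with 1 WT line out of the centre, and from recovered fragments were chosen after seeing the data. Under 1000 fragments, 100% of values came out as whole fragments within 0.05 in each library.

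The count of 265 members above the mean in PC134-0 and PC326-1 and below it in PC308-1 was 216 when centred on the median and 221 when centred on the mutant lines. For the matrix list in PIC144-1 the median of 0.47 became -0.047 with a minimum of 0.5 FPKM. For the innate immune list in PIC144-1 it went from 0.40 to -0.047 with that minimum and to -0.073 with a minimum of 10 FPKM. These alternatives change which genes are members.

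In the genotype comparison, 0 members were called by limma on line means under each other scaling, filter, pseudocount or left-out line or replicate, and by voom. Few of all genes were called either, from 3 (as without PC134-0) to 48 (without PC308-1) by limma, and 0 by voom. Without PC308-1, 119 members (34.0%, against 17.2% of all genes) had an unadjusted limma p under 0.05, 118 of them lower in the mutant lines. Leaving out that line follows the contrast that chose the chromosome, so this describes it only. The genotype test counts PC134-0 and PC326-1, the most alike pair on the other autosomes, as separate lines. Lines that share a number may come from 1 animal, though the test counts them separately too. With such lines averaged, limma called 0 members and 6 of 13379 genes. Fits over the 21 libraries with the line as a random effect called more, of the members as of all genes: 14 members lower in the mutant lines (4.0%, against 2.73% of all genes), and 11 with the replicate block (3.14%, against 2.24%). With the replicate block the limma adjusted p was 0.001591 for Kif13a, 0.004514 for Pik3r1, 0.0905 for Nfil3 and 0.4329 for Uqcrb. Such fits use a single correlation between libraries of a line for all genes, while the genotype belongs to the line. Where a gene's libraries are more alike within a line than that, they count partly as replicates, and its p can be too small. Libraries with the same number did not regularly deviate together: over 63 pairs the correlation was -0.34 to 0.60, with a median of 0.05, and 25 pairs were over 0.1. Depth limits the lowest values: 0.667% of 7350 values of a member in a library rest on under 10 fragments.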
